A study of Bos taurus with 8 samples.

Results

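The thrombospondins are a family of 5 secreted calcium-binding glycoproteins, encoded by *Thbs1*, *Thbs2*, *Thbs3*, *Thbs4* and *Comp* (cartilage oligomeric matrix protein, another member of the family). Their rows were taken by their symbols THBS1, THBS2, THBS3, THBS4 and COMP from an RNA-Seq count table of 24596 bovine genes. All 5 were found, and all 5 were among the 12857 genes that passed the filter on low counts and were tested.

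Thrombospondins belong to the matricellular proteins, which are laid down in the extracellular matrix and link it to the cell surface. *Thbs1* and *Thbs2* encode trimers that carry thrombospondin type 1 repeats, the domains through which they act on receptors such as CD36, on integrins and, for *Thbs1*, on latent TGF-β. *Thbs3*, *Thbs4* and *Comp* encode pentamers that lack those repeats and bind collagens and other matrix proteins. *Comp* is an abundant product of cartilage, where its protein binds type II and type IX collagen, and mutations of the human gene cause pseudoachondroplasia. *Thbs4* is best known from tendon, muscle and the nervous system.

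RNA-Seq compared superficial zone chondrocytes (SZCs), which lie at the joint surface and make the lubricant *Prg4*, with deep zone chondrocytes (DZCs), with 2 libraries per zone. The cells were wild type and came from knee joint cartilage of calves 1 to 2 weeks old. Each cartilage core gave a superficial and a deep slice, slices of a joint were pooled by zone, and the cells were grown for 3 days in DMEM/F12 medium with fetal bovine serum before RNA was taken. The study calls the duplicates biological, but the labels do not say which joint or animal gave each library, so a p-value here measures the spread between these libraries.

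Libraries held between 19918970 and 21890549 counts, at which 3 counts correspond to a normalized read count of between 0.129 and 0.187 CPM (the counts of a gene scaled to a common library size, after TMM normalization), so none of the 5 genes was near that floor. All 9 chondrocyte markers looked for were found and tested, among them *Col2a1*, *Acan* and *Sox9*. DZC replicate 1 stood apart from the other libraries. Its TMM factor was 0.735, against 1.08 to 1.14, and 6 genes of dividing cells (*Mki67*, *Top2a* and others) summed to 14.5 CPM in it, against 163 to 286 CPM elsewhere. In DZC replicate 2, 7 genes of hypertrophic chondrocytes and bone summed to 69.2 CPM, against at most 2.00 CPM in the other libraries. The difference of each thrombospondin gene, and the counts of each list of partners, are therefore also given without single libraries where these change them.

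Of the 5 genes, 1 was called different between the zones by edgeR's exact test at an adjusted p (FDR, Benjamini–Hochberg over all 12857 genes) under 0.05. That gene was *Thbs4*, higher in SZCs. The same test called 2.93% of all tested genes, 2.23% higher in SZCs and 0.7% higher in DZCs. The 377 calls split into 287 higher in SZCs and 90 higher in DZCs, and into 288 and 44 under a scaling by library totals without TMM, which raised the median log2 fold change of all genes by 0.30. The SZC and DZC libraries did not overlap in level for 3 of the 5 genes, against 41.5% of all tested genes. SZCs were above DZCs for *Thbs4* and *Thbs2* (21% of all tested genes lay so) and below them for *Comp* (20.5%). The median log2 fold change of the 5 genes was 0.26, against -0.04 over all tested genes. In whole cultures, fewer cells that make a transcript and less transcript per cell cannot be told apart.

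**Figure D1:**
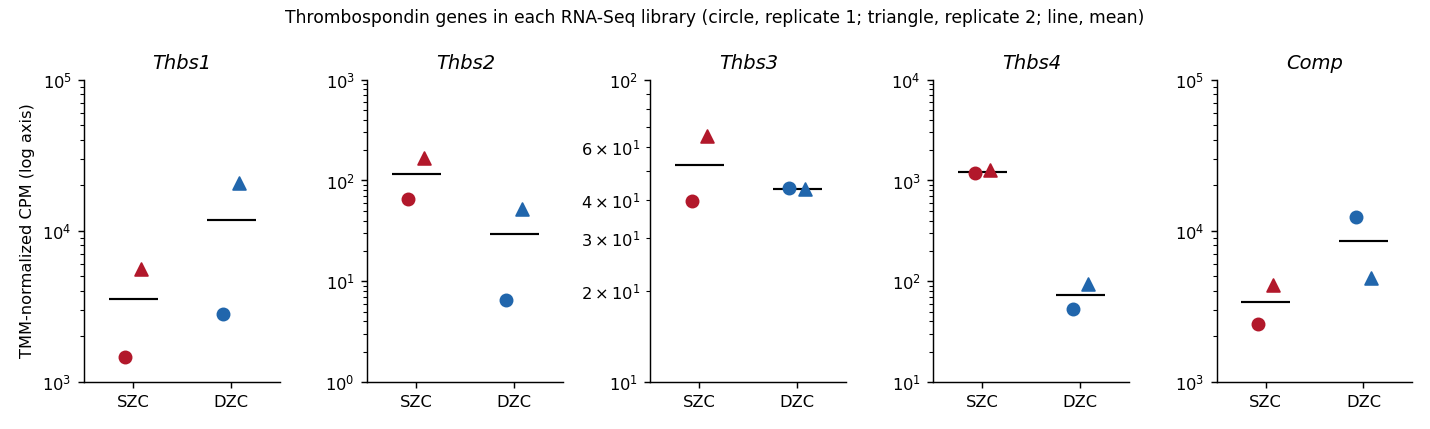
Level of each thrombospondin gene in CPM (log axis, a different range for each gene) in the 2 SZC libraries (red) and the 2 DZC libraries (blue). Circles are replicate 1, triangles replicate 2 and lines the mean of a zone. The 2 SZC values of *Thbs4*, 1190 and 1260 CPM, sit together and far above the DZC values, whereas *Thbs1* spreads from 2830 to 20600 CPM within DZCs.

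The pentameric thrombospondin *Thbs4* (ENSBTAG00000012866) had 26222 and 29164 counts in SZC replicates 1 and 2, and 848 and 2097 counts in DZC replicates 1 and 2. In CPM these were 1190 and 1260 in SZCs and 52.8 and 94.0 in DZCs. Both SZC libraries lay well above both DZC libraries, and the SZC duplicates were nearly equal. Mean levels were 1220 ± 46.1 CPM in SZCs and 73.4 ± 29.2 CPM in DZCs (SD, n = 2 each). The log2 fold change of SZCs over DZCs was 4.06 (SE 0.44, 95% interval 3.21 to 4.91), 16.7-fold on a linear scale, with an FDR of 3.49e-13 by edgeR's exact test. The study itself named *Thbs4* as a superficial zone marker from these libraries, so the direction is not independent evidence of a zone difference. By p-value *Thbs4* ranked 9 among all tested genes. By size of the change it ranked 62 among the 287 genes called higher in SZCs, and its SZC duplicates differed by 1.05-fold and its DZC duplicates by 1.78-fold. The log2 fold change stayed between 3.71 and 4.55 when each library was left out in turn, and *Thbs4* was called all 4 times. It was not called by edgeR's quasi-likelihood test, whose FDR for it was 0.108 at an unadjusted p of 0.000168. That test called 0 of the 12857 genes, with 1126 at an unadjusted p under 0.05, whereas DESeq2 called 397 genes (3.09% of those tested) and 1 of the 5, *Thbs4*, with an FDR of 3.1e-21.

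*Comp* (ENSBTAG00000004630), the pentamer most closely tied to cartilage matrix, had 52758 and 101872 counts in SZCs and 199098 and 107929 counts in DZCs. Its levels were 2400 and 4390 CPM in SZC replicates 1 and 2, and 12400 and 4840 CPM in DZC replicates 1 and 2. Both SZC libraries lay below both DZC libraries, but SZC replicate 2 and DZC replicate 2 were close, and DZC replicate 1 stood far above the other libraries. Means were 3390 ± 1410 CPM in SZCs and 8610 ± 5340 CPM in DZCs (SD, n = 2 each), a log2 fold change of -1.34 (SE 0.60, 95% interval -2.53 to -0.16). The unadjusted p of edgeR's exact test was 0.0303 and the FDR 0.412, so *Comp* was not called. Without DZC replicate 1 the log2 fold change was -0.51 (FDR 0.704), and without DZC replicate 2 it was -1.85 (FDR 4.54e-05), in each case by edgeR's exact test with the lone DZC library assumed to vary like the SZC libraries. Scaled by library totals alone, the log2 fold change was -0.91.

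*Thbs3* (ENSBTAG00000000057), the other pentamer, is expressed in skeletal tissue. It had 873 and 1509 counts in SZCs and 706 and 968 counts in DZCs, or 39.7 and 65 CPM in SZCs and 43.9 and 43.4 CPM in DZCs. Zones overlapped, with SZC replicate 2 highest, SZC replicate 1 lowest and the DZC libraries almost equal between them. The log2 fold change was 0.26 (SE 0.39, edgeR's exact test FDR 0.999). The 95% interval of -0.50 to 1.02 leaves room for a change of up to about 2-fold in favour of SZCs. Leaving out SZC replicate 2 turned the sign, to -0.14, and leaving out SZC replicate 1 gave 0.57.

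*Thbs1* (ENSBTAG00000002006), the trimer known as an inhibitor of vessel growth and an activator of latent TGF-β, had 32373 and 130054 counts in SZCs and 45479 and 460045 counts in DZCs. In CPM it stood at 1470 and 5600 in SZC replicates 1 and 2 and at 2830 and 20600 in DZC replicates 1 and 2. Zones overlapped, and in each zone replicate 2 was several-fold above replicate 1. Mean levels were 3540 ± 2920 CPM in SZCs and 11700 ± 12600 CPM in DZCs (SD, n = 2 each), with an SD above the mean in DZCs. The log2 fold change was -1.73 (SE 1.00, 95% interval -3.68 to 0.23), with an FDR of 0.736 by edgeR's exact test. Between libraries of the same number, the log2 difference of SZCs from DZCs was -0.94 for replicate 1 and -1.88 for replicate 2. The labels do not say that these numbers pair the libraries. The direction turned when a single library, DZC replicate 2, was left out. Without it the log2 fold change was 0.34 (FDR 0.757), and without DZC replicate 1 it was -2.54 (FDR 0.00229), again by edgeR's exact test with a lone DZC library.

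*Thbs2* (ENSBTAG00000018810), the other trimer, which limits vessel growth and shapes collagen fibrils, had 1441 and 3863 counts in SZCs and 105 and 1164 counts in DZCs. Levels were 65.5 and 166 CPM in SZC replicates 1 and 2, and 6.53 and 52.2 CPM in DZC replicates 1 and 2. Both SZC libraries were above both DZC libraries, yet SZC replicate 1 and DZC replicate 2 were close, and replicate 2 was again the higher in each zone. Means were 116 ± 71.4 CPM in SZCs and 29.4 ± 32.3 CPM in DZCs (SD, n = 2 each), and the log2 fold change was 1.98 (SE 0.93, 95% interval 0.16 to 3.81). *Thbs2* was not called by edgeR's exact test, with an unadjusted p of 0.0452 and an FDR of 0.518. The log2 fold change was 4.17 (FDR 4.31e-11, edgeR's exact test) without DZC replicate 2, 1.16 without DZC replicate 1 and 1.16 without SZC replicate 2.

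**Figure D2:**
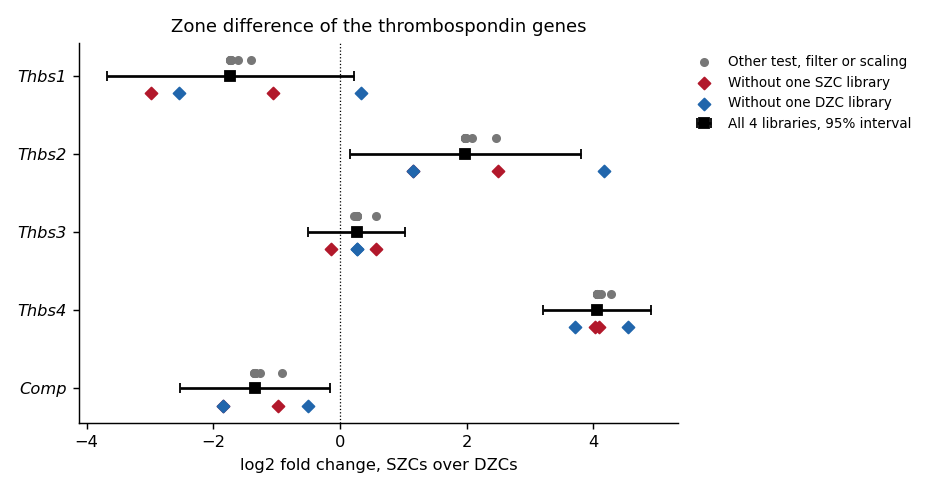
Log2 fold change of SZCs over DZCs for each gene, from all 4 libraries (black square, with its 95% interval), under another test, filter or scaling (grey points) and with 1 SZC (red) or 1 DZC (blue) library left out. All values of *Thbs4* lie between 3.71 and 4.55, and those of *Thbs1* run from -2.99 to 0.34. Where a red and a blue point have nearly the same value, only the blue shows.

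How the counts of the family divided among its genes differed between libraries. The 5 genes together took 0.571% of the counts of SZC replicate 1, 1.30% of SZC replicate 2, 1.12% of DZC replicate 1 and 2.78% of DZC replicate 2. Their total was thus lowest in SZC replicate 1 and highest in DZC replicate 2, and the zones overlapped in these shares. After TMM normalization the total was 5160 and 11500 CPM in SZCs and 15300 and 25600 CPM in DZCs, without overlap. Shares here are of reads, not divided by transcript length, so they follow each gene across libraries and do not rank the genes. *Thbs4* made up 23.1% (95% Wilson interval 22.8% to 23.3%) and 10.9% (10.8% to 11.1%) of the family's counts in SZCs, and 0.344% (0.322% to 0.368%) and 0.366% (0.351% to 0.382%) in DZCs. The intervals cover counting error only. The share of *Comp* ran from 18.9% in DZC replicate 2 to 80.9% in DZC replicate 1, with 46.4% and 38.2% in SZCs. That of *Thbs1* ran the other way, at 18.5% in DZC replicate 1 and 80.4% in DZC replicate 2, with 28.5% and 48.8% in SZCs. The DZC libraries were alike in the small share of *Thbs4* reads and opposite in which of *Comp* and *Thbs1* filled the remainder.

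**Figure D3:**
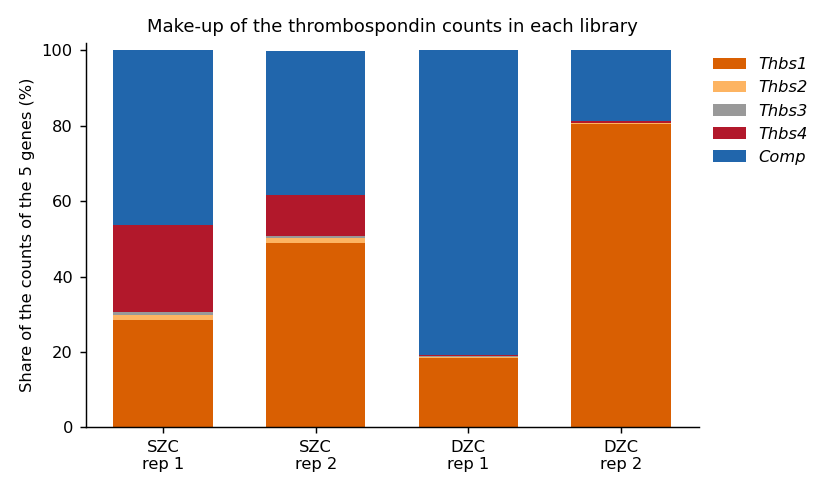
Share of the counts of the 5 genes (percent, stacked to the whole of each library) taken by each gene in the 4 libraries. The red *Thbs4* block is 23.1% and 10.9% in SZCs and too thin to see in DZCs, and the DZC libraries differ by which of *Comp* (blue) and *Thbs1* (orange) fills the bar.

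A ratio of genes within a library does not depend on how libraries are scaled. Computed for 6 ratios, the log2 ratio of *Thbs4* to *Comp* was -1.01 and -1.80 in SZCs and -7.88 and -5.69 in DZCs. The zones did not overlap, and the mean difference was 5.37 on the log2 scale, or 41.5-fold. The log2 ratio of *Thbs1* to *Thbs2* was 4.49 and 5.07 in SZCs and 8.76 and 8.63 in DZCs, so that the trimers kept a similar proportion to each other within a zone (SD 0.41 in SZCs and 0.09 in DZCs, n = 2 each) while each of them varied several-fold between duplicates. The difference between zones in that ratio was -3.91, or 15.0-fold. The log2 ratio of *Thbs4* to *Thbs3*, both pentamers, was 4.91 and 4.27 in SZCs and 0.26 and 1.12 in DZCs, a difference of 3.90. The zones also did not overlap in the ratios of *Thbs2* and *Thbs3* to *Comp*, whose differences were 3.75 and 1.47. These moved to 1.58 and 0.80 without DZC replicate 1 and to 5.93 and 2.14 without DZC replicate 2, a check added after the data were seen. Only the log2 ratio of *Thbs1* to *Comp* overlapped, at -0.70 and 0.35 in SZCs and -2.13 and 2.09 in DZCs, and its difference ran from -2.27 without DZC replicate 1 to 1.95 without DZC replicate 2. With 2 libraries per zone, a two-sided exact permutation test cannot give a p below 0.333, which is what the 5 non-overlapping ratios gave (0.4 adjusted over the 6 ratios).

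Differences between duplicates set the limit for most of the family. *Thbs1* was 3.81-fold higher in replicate 2 than in replicate 1 of SZCs and 7.29-fold higher in replicate 2 of DZCs. *Thbs2* was higher in replicate 2 by 2.54-fold in SZCs and 7.99-fold in DZCs. On the log2 scale the median size of this difference, over 8445 genes with at least 100 counts in every library, was 0.20 in SZCs and 0.47 in DZCs, against 1.93 and 2.87 for *Thbs1* and 1.35 and 3.0 for *Thbs2*. Both trimers thus moved between duplicates far more than a typical gene. Only 0.201% of those genes differed more than *Thbs1* between SZC duplicates and 0.237% between DZC duplicates, and for *Thbs2* the shares were 0.71% and 0.142%. Replicate 2 was higher in both zones, by at least as much as for *Thbs1* in each, for 3 other genes, among them *Fndc1* (a secreted protein) and *Ccn3* (a matricellular protein). At the level of *Thbs2* there were 5, those 3 with *Lama5* (a laminin chain) and *Loxl4* (a lysyl oxidase-like enzyme). These genes were picked by their values.

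*Comp* moved in opposite directions, 1.83-fold higher in replicate 2 of SZCs and 0.391 times as high in replicate 2 of DZCs, log2 differences of 0.87 and -1.36. More than that separated the SZC duplicates of 2.39% of the 8445 genes and the DZC duplicates of 5.03%. *Thbs4* differed by 0.08 in SZCs, where 79.1% of genes differed more, and by 0.83 in DZCs, where 22% did. *Thbs3* differed by 0.71 in SZCs and by -0.02 in DZCs, where 97.9% of genes differed more. The steadiest gene of the family between duplicates was thus *Thbs4* in SZCs and *Thbs3* in DZCs.

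**Figure D4:**
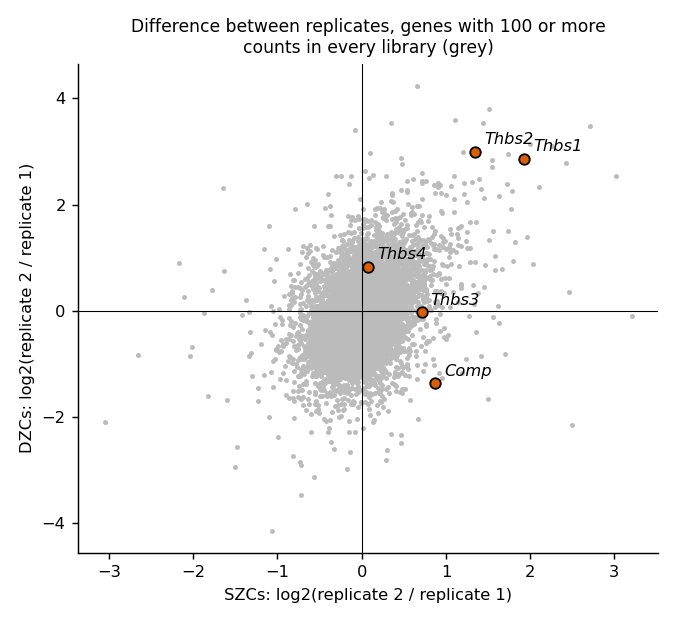
Log2 difference of replicate 2 over replicate 1 in SZCs (horizontal axis) and DZCs (vertical axis) for the 8445 genes with at least 100 counts in every library (grey) and the 5 thrombospondin genes (orange). *Thbs1* (1.93, 2.87) and *Thbs2* (1.35, 3.0) lie at the upper right edge of the cloud, *Thbs4* inside it and *Comp* at its lower right.

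For each gene the tested genes nearest in pattern (the nearest 3, of which 2 are given for *Thbs1*) were found by the Euclidean distance of log2(CPM + 1) over the 4 libraries, after centring each gene on its mean. With 4 libraries this describes resemblance only. Nearest to *Thbs1* were *Tagln*, which encodes the actin-binding protein transgelin (distance 0.36), and *Nes*, an intermediate filament gene (0.38). *Tagln* stood at 13.9 and 75.0 CPM in SZCs and 29.5 and 204 CPM in DZCs, and *Nes* at 0.409 and 4.39 CPM in SZCs and 0.995 and 18.2 CPM in DZCs. Both were higher in replicate 2 of each zone, as *Thbs1* was. *Thbs2* lay nearest to *Dkk2*, a Wnt modulator (0.37), *Zeb2*, a transcriptional repressor (0.48), and *Col1a2*, a chain of type I collagen (0.49). *Col1a2* stood at 3830 and 7190 CPM in SZCs and 516 and 2720 CPM in DZCs, lowest, as *Thbs2* was, in DZC replicate 1.

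The genes nearest to *Thbs4* were *Mme*, which encodes the membrane peptidase neprilysin (distance 0.33), *Fgl2*, a fibrinogen-like secreted protein (0.49), and *Creb5*, the transcription factor of the study (0.54). All 3 were called higher in SZCs by edgeR's exact test, with FDRs of 3.58e-06, 3.78e-16 and 3.78e-16. They were picked by their resemblance to *Thbs4* over the same libraries, so these calls are no separate evidence. *Creb5* stood at 47.0 and 32.4 CPM in SZCs and 1.24 and 1.97 CPM in DZCs, with no overlap. By RT-qPCR of SZCs, the study found that knock-down or mutation of *Creb5* did not lower baseline *Thbs4*. With TGF-β2 added, both lowered it. Nearest to *Comp* were *Fam160a1* (0.08), *Slc38a5*, an amino acid transporter (0.19), and *Adra2c*, an adrenergic receptor (0.26), none of them called. *Slc38a5* stood at 31.1 and 58.8 CPM in SZCs and 169 and 75.3 CPM in DZCs, highest in DZC replicate 1 like *Comp*. *Thbs3* lay nearest to *Gpr83* (0.03), *Mylk3* (0.06) and *Atp10a* (0.08), none of them called. *Atp10a* stood at 133 and 214 CPM in SZCs and 140 and 149 CPM in DZCs. *Gpr83* (1.82 to 3.62 CPM) and *Mylk3* (0.454 to 1.34 CPM) were low, as was *Mme* in DZCs (0.373 and 2.06 CPM). At such levels the 1 added to CPM shrinks differences between libraries.

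**Figure D5:**
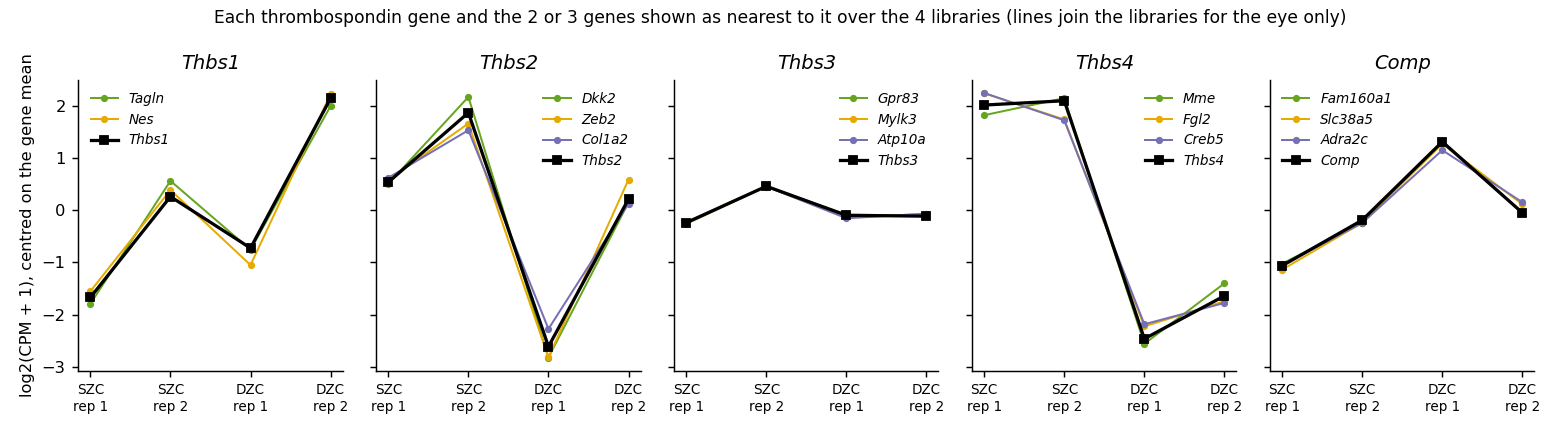
Each thrombospondin gene (black) and the genes nearest to it in pattern (coloured, 2 for *Thbs1* and 3 for the others), as log2(CPM + 1) centred on the mean of each gene, over the 4 libraries. Lines join libraries for the eye only. *Thbs1* and *Tagln* are higher in replicate 2 of both zones, *Thbs4* and *Creb5* are high in both SZC libraries, and *Comp* peaks in DZC replicate 1.

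The partners of thrombospondins were described from lists of genes, whose counts are read against the 2.93% of all genes called. Of 12 tested receptors and cell surface partners, 0 were called by edgeR's exact test (0 at an unadjusted p under 0.05), its quasi-likelihood test or DESeq2, with a median log2 fold change of -0.08, and their summed level was 3740 and 4040 CPM in SZCs and 3760 and 4940 CPM in DZCs. *Lrp1*, the endocytic receptor that clears thrombospondins, stood at 1530 and 1780 CPM in SZCs and 1150 and 2430 CPM in DZCs (log2 fold change -0.11, SE 0.49), with overlapping zones. *Itgb1*, the shared β chain of many matrix-binding integrins, had a log2 fold change of -0.15 (SE 0.45), and *Calr*, calreticulin, one of -0.41 (SE 0.49). *Cd47*, a receptor of the C-terminal domain of *Thbs1*, was higher in both SZC libraries (161 and 199 CPM) than in the DZC libraries (77.6 and 155 CPM), but was not called (FDR 0.849, edgeR's exact test). The counts of 0 and 0 were 0 and 2 (higher in SZCs and in DZCs) without DZC replicate 1 and 5 and 1 without DZC replicate 2, where the median log2 fold change was 0.76.

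Among 13 matrix partners of *Comp* and the other pentamers, 2 were called higher in SZCs and 1 higher in DZCs. *Col14a1*, a fibril-associated collagen, stood at 946 and 857 CPM in SZCs and 111 and 209 CPM in DZCs (log2 fold change 2.49, SE 0.45, FDR 2.74e-05, edgeR's exact test). *Dcn*, the small proteoglycan decorin, stood at 1030 and 672 CPM in SZCs and 114 and 270 CPM in DZCs (2.15, SE 0.54, FDR 0.00804). *Matn3*, a matrilin that binds *Comp*, stood at 48.5 and 77.5 CPM in SZCs and 186 and 334 CPM in DZCs (-2.04, SE 0.46, FDR 0.00212). For each of these the zones did not overlap. *Col2a1* and the 3 type IX collagen genes on the list had replicate 1 above replicate 2 in DZCs, as *Comp* did, whereas *Col1a1*, *Col12a1* and *Col14a1* had replicate 2 above replicate 1 (1080 and 5720 CPM for *Col1a1*). *Col2a1* stood at 65000 and 55500 CPM in SZCs and 333000 and 119000 CPM in DZCs (log2 fold change -1.91, SE 0.59, FDR 0.0658, edgeR's exact test). *Col9a1* stood at 9510 and 10600 CPM in SZCs and 31200 and 11900 CPM in DZCs (-1.10, SE 0.56, FDR 0.581). Neither was called by that test, although both were lower in each SZC library than in either DZC library, and DESeq2 called *Col2a1* (FDR 0.01). The counts of 2 and 1 became 2 and 0 with libraries scaled by totals alone (*Matn3* then had an FDR of 0.109), 0 and 0 without SZC replicate 1, 2 and 0 without SZC replicate 2, 4 and 2 without DZC replicate 1 and 4 and 6 without DZC replicate 2.

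Other secreted proteins with thrombospondin type 1 repeats, the domain that *Thbs1* and *Thbs2* share with them, held 7 genes called higher in SZCs and 1 called higher in DZCs among 21 tested, with a median log2 fold change of 1.21. The lowest FDR among them was that of *Thsd4*, whose product takes part in microfibril assembly, at 78.3 and 84.1 CPM in SZCs and 4.79 and 7.35 CPM in DZCs (log2 fold change 3.73, SE 0.38, FDR 1.14e-15, edgeR's exact test). *Papln*, papilin, stood at 21.0 and 11.6 CPM in SZCs and 0.809 and 0.672 CPM in DZCs (4.46, SE 0.59, FDR 3.26e-09). *Cilp*, cartilage intermediate layer protein, stood at 13.3 and 13.7 CPM in SZCs and 1.93 and 2.29 CPM in DZCs (2.67, SE 0.48, FDR 2.42e-05). In these genes, as in *Thbs4*, SZC duplicates were both far above DZC duplicates. *Spon2* and *Adamtsl3* were also called higher in SZCs, with log2 fold changes of 2.06 (FDR 0.000171) and 1.45 (FDR 0.0099, both by edgeR's exact test). The gene higher in DZCs was *Rspo3*, an enhancer of Wnt signalling, at 0.500 and 1.29 CPM in SZCs and 14.7 and 9.55 CPM in DZCs (-3.75, SE 0.65, FDR 2.42e-05, edgeR's exact test). *Ccn2*, connective tissue growth factor, stood at 951 and 1250 CPM in SZCs and 2020 and 5160 CPM in DZCs, without overlap, but was not called (FDR 0.0847, edgeR's exact test). The counts of 7 and 1 became 5 and 1 with libraries scaled by totals alone, 2 and 0 without SZC replicate 1, 2 and 1 without SZC replicate 2, 7 and 2 without DZC replicate 1 and 13 and 2 without DZC replicate 2.

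*Thbs1* activates latent TGF-β, and of 16 tested genes of latent TGF-β, its receptors and its targets, 3 were called higher in SZCs and 0 higher in DZCs, with a median log2 fold change of 0.59. *Tgfb3*, a TGF-β ligand, stood at 66.1 and 48.6 CPM in SZCs and 24.4 and 25.7 CPM in DZCs (log2 fold change 1.2, SE 0.36, FDR 0.0355, edgeR's exact test). By the same test *Tgfb3* was not called with no filter (FDR 0.0531) or with another dispersion estimator (FDR 0.0726). Nor was it called by the quasi-likelihood test when libraries were assumed to pair by number (FDR 0.0656). In each of these settings the list held 2 and 0 calls. *Ltbp1*, which tethers latent TGF-β to the matrix, had a log2 fold change of 2.31 (SE 0.64, FDR 0.0256), and *Tgfbr3*, the co-receptor betaglycan, one of 2.53 (SE 0.70, FDR 0.0289, both by edgeR's exact test). The counts of 3 and 0 fell to 1 and 0 with libraries scaled by totals alone and to 0 and 0 without SZC replicate 1 or without SZC replicate 2, and were 3 and 3 without DZC replicate 1 and 8 and 0 without DZC replicate 2.

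Proteases known to cleave thrombospondins or *Comp* held 0 calls among 6 tested by edgeR's exact test (1 gene at an unadjusted p under 0.05), its quasi-likelihood test or DESeq2, with a median log2 fold change of 0.71. *Mmp9*, a gelatinase, stood at 133 and 130 CPM in SZCs and 42.0 and 93.2 CPM in DZCs (log2 fold change 0.96, SE 0.47, FDR 0.519, edgeR's exact test), and the zones did not overlap. *Adamts1* stood at 35.3 and 58.1 CPM in SZCs and 6.66 and 40.4 CPM in DZCs (0.99, SE 0.80), with overlap. *Mmp13*, a collagenase, had no counts in either SZC library or in DZC replicate 1 and stood at 21.0 CPM in DZC replicate 2, and was not tested after the filter. Without DZC replicate 2, 4 of 6 proteases were called higher in SZCs and the median log2 fold change was 2.48. Without DZC replicate 1, 1 of 7 was called, higher in DZCs, and the median was -0.46, as without SZC replicate 2 it was -0.49 with 0 called.

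Other cell types could also carry thrombospondin transcripts. Genes of smooth muscle and pericytes, all 5 of them tested and 0 called by edgeR's exact test (0 at an unadjusted p under 0.05) or DESeq2, summed to 19.0 and 117 CPM in SZCs and 58.2 and 339 CPM in DZCs, the same order of libraries as for *Thbs1*. That order is the order of *Acta2*, smooth muscle actin, which carries the sum, with 254 and 2164 counts in SZCs and 855 and 6938 counts in DZCs. The median log2 fold change of the list was 0.36. *Myh11*, smooth muscle myosin, stood at 2.23 and 4.57 CPM in SZCs and 0.311 and 2.29 CPM in DZCs, and *Rgs5* at 0.909 and 1.12 CPM in SZCs and 0 and 0.403 CPM in DZCs, both with a higher mean in SZCs. Like *Acta2*, *Cnn1*, calponin, had a lower mean in SZCs, at 0.681 and 4.18 CPM against 0.435 and 15.6 CPM in DZCs (log2 fold change -1.72). Unlike *Acta2*, *Cnn1* was lowest in DZC replicate 1. *Mcam* overlapped. Genes of the list called higher in DZCs numbered 1 without SZC replicate 2 and 2 without DZC replicate 1, and without DZC replicate 2, 2 were called higher in SZCs. The part of these transcripts in the level of *Thbs1* was not tested. Endothelial genes, all 6 found, summed to between 3.92 and 11.8 CPM. Of 5 platelet genes 3 were found, *Gp9* was at 0 counts in every library, and the list summed to at most 1.87 CPM. Leukocyte genes summed to 19.0 and 32.0 CPM in SZCs and 6.84 and 15.4 CPM in DZCs, all 6 of them found. Of 4 endothelial and 4 leukocyte genes tested, 0 were called by edgeR's exact test (1 of each list at an unadjusted p under 0.05) or DESeq2, whereas without DZC replicate 2, 1 of 5 endothelial and 3 of 5 leukocyte genes were called higher in SZCs.

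Tendon and synovial fibroblast lists bear on *Thbs4* and *Thbs2*, which both of those tissues express. Tendon genes summed to 25400 and 29700 CPM in SZCs and 12400 and 17300 CPM in DZCs, with 0 of 6 tested called by edgeR's exact test (2 at an unadjusted p under 0.05) or DESeq2. Of the defining tendon genes, *Tnmd* and *Kera* were at or near 0, with 1, 10, 0 and 3 counts for *Tnmd* and 0, 0, 0 and 5 for *Kera* in SZC replicates 1 and 2 and DZC replicates 1 and 2. The tendon transcription factor genes *Scx* and *Mkx* were detected and were not higher in SZCs. *Scx* had 50 and 92 counts in SZCs and 43 and 111 counts in DZCs, and *Mkx* stood at 35.3 and 35.9 CPM in SZCs and 54.1 and 52.6 CPM in DZCs. Of the matrix genes on that list, *Tnc* (log2 fold change 2.41) and *Col3a1* (1.44) were above in both SZC libraries, at 4000 and 5070 CPM against 135 and 1570 CPM for *Tnc* and at 8200 and 7690 CPM against 1540 and 4310 CPM for *Col3a1*, and *Fmod* and *Col1a1* overlapped. Of the 6 tendon genes tested, 1 was called higher in SZCs without DZC replicate 1 and 3 without DZC replicate 2. Synovial fibroblast genes, all 7 tested and 0 called by the same tests (4 at an unadjusted p under 0.05 in the exact test), summed to 18700 and 21800 CPM in SZCs and 5410 and 14300 CPM in DZCs, higher in both SZC libraries as *Thbs2* and *Thbs4* were. The sum is carried by *Col1a1*, *Col3a1* and *Col6a3*. *Col3a1* and *Col6a3* were above in both SZC libraries, as were the receptor genes *Pdgfra* (456 and 465 CPM against 126 and 421 CPM in DZCs) and *Pdgfrb* (30.8 and 40.8 CPM against 6.03 and 20.6 CPM). *Pdpn*, podoplanin, was below in both, at 492 and 453 CPM against 1100 and 762 CPM, and *Thy1* and *Col1a1* overlapped. Without DZC replicate 2, 5 of the 7 were called higher in SZCs and 1 higher in DZCs. The part of such cells in the differences of *Thbs2* and *Thbs4* was not tested. Besides *Thbs4*, the superficial zone genes *Prg4*, *Vit*, *Epha3* and *Wif1*, also named by the study, were all 4 called higher in SZCs by edgeR's exact test, but they were picked on these libraries and are no independent check of the zones.

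Chondrocyte identity genes were read in the same way. Of the 9 markers, 2 were called higher in DZCs by edgeR's exact test and 0 higher in SZCs, against 2.93% of all genes called, and the median log2 fold change was -1.10. These were *Matn3*, given above, and *Cnmd*, chondromodulin, at 551 and 663 CPM in SZCs and 7110 and 2240 CPM in DZCs. When libraries were assumed to pair by number, edgeR's quasi-likelihood test called *Matn3* (FDR 0.0132) but not *Cnmd* (FDR 0.0793). Without that pairing it called neither (FDR 0.244 and 0.28). The number called was 4 by DESeq2, 1 with libraries scaled by totals alone, 0 without SZC replicate 1, 0 without SZC replicate 2, 2 without DZC replicate 1 and 7 without DZC replicate 2, in each case higher in DZCs.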

How the data were processed

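RNA-Seq of 4 libraries (2 SZC and 2 DZC, SMART-Seq kit) was analysed, and the 4 ATAC-Seq samples of the series were not analysed here. The authors aligned the reads with STAR 2.5.2b to Ensembl build UMD 3.1 and deposited whole-number counts per gene, without normalization, from unstranded counting, so that reads of overlapping genes cannot be told apart. They also deposited log2 fold changes and FDR p-values of their own comparison for 320 genes, which were not used. From that table only symbols were taken, which filled 19 blank gene names. Libraries were grouped by their labels, and each column of counts was matched to a library by name.

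The analysis used edgeR 4.0.16 and R 4.3.3. Genes were filtered with filterByExpr, libraries scaled by TMM, dispersions estimated with estimateDisp (common biological coefficient of variation 0.361) and zones compared by the two-sided exact test, with Benjamini–Hochberg adjustment over all 12857 genes and a threshold of 0.05. The exact test, TMM and threshold follow the study, and the filter and the dispersion estimator are defaults. Standard errors came from the negative binomial model. The 5 genes and all lists were chosen with earlier results of these data known. Genes named from a list were those called (at most 6, by lowest FDR), otherwise the 3 with the highest mean CPM. *Cd47*, *Col1a1*, *Col2a1*, *Col9a1*, *Ccn2*, *Myh11*, *Rgs5*, *Tnmd*, *Kera*, *Scx*, *Mkx*, *Pdpn*, *Thy1*, *Cnn1*, *Mcam*, *Col3a1*, *Col6a3*, *Fmod*, *Pdgfra*, *Pdgfrb*, *Tnc*, *Sparc* and *Serpinh1* were chosen after their values were seen. Some items that met these rules are not reported here. The procedure was tested on simulated data with known fold changes and the same dispersion for all genes. It recovered 2% of 2-fold, 56% of 4-fold and 100% of 8-fold changes, so a gene not called may still differ. The gene-wise coefficients of variation of *Thbs1* (0.69) and *Thbs2* (0.64) were above the common value.

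Alternatives were edgeR's quasi-likelihood test, the same with the replicate number as a block, DESeq2 1.42.0, no filter, a filter above 1 CPM in 2 or more libraries, size factors of DESeq2, library totals alone, another dispersion estimator, and each library left out in turn. Replicates differed by far more than sampling noise (chi-square per degree of freedom 65.7 in SZCs and 321 in DZCs), so none was treated as the same library counted again. This comparison covers counting noise only, so it cannot say whether replicates came from different joints or animals.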

Additional observations from a re-analysis of the deposited data

How the results depend on the processing

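With 2 libraries per zone, leaving out a library can change a call. *Thbs4* kept its direction under all 8 alternatives to the test, filter, scaling or dispersion (log2 fold change 4.06 to 4.29) and was called in 7 of them. The exception was edgeR's quasi-likelihood test, with a log2 fold change of 4.06 and an FDR of 0.108, which called 0 of the 5 genes, 0 of the listed genes and 0 genes in all, in either direction. *Thbs1*, *Thbs3* and *Comp* were called in none of the 8. Scaling by library totals alone gave 44 genes higher in DZCs. A replicate block in the quasi-likelihood test gave 2 calls among the 5 genes, adding *Thbs2* (log2 fold change 2.47, FDR 0.0183), and 347 genes in all, 277 of them shared with the exact test. Under it *Dcn* (FDR 0.062), *Tgfb3* (0.0656), *Smoc2* (0.0766), *Cnmd* (0.0793) and *Hspa5* (0.282), among others, were not called. Calls higher in SZCs and in DZCs were 6 and 1 for the type 1 repeat list, against 7 and 1 by the exact test. They were 2 and 0, against 3 and 0, for the latent TGF-β list, and 0 and 1, against 0 and 2, for chondrocyte markers. The labels do not say that the replicate numbers pair the libraries. Deviations of same-numbered libraries correlated at 0.42 across 12857 genes, with 2 pairs only.

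Leaving out each library in turn moved the number of genes called from 58 to 2725 (52 to 1607 higher in SZCs and 6 to 1118 higher in DZCs), that of the 5 genes from 1 to 3 and that of listed genes from 6 to 76, against 21 of 128 with all libraries. The log2 fold change ran from -2.99 to 0.34 for *Thbs1*, from 1.16 to 4.17 for *Thbs2*, from -0.14 to 0.57 for *Thbs3*, from 3.71 to 4.55 for *Thbs4* and from -1.85 to -0.51 for *Comp*. The difference in the *Thbs4* to *Comp* ratio ran from 4.28 to 6.47. A zone left with 1 library was assumed to vary like the other zone. For the other genes named, 425 values kept their side of the threshold, 66 lost it and 12 gained it, and the cause was not tested.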

Other observations

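Among 12 tested genes of other matricellular proteins, the class to which thrombospondins belong, 1 was called, *Smoc2*, higher in DZCs at 361 and 149 CPM against 48.9 and 77.0 CPM in SZCs (log2 fold change -2.02, SE 0.54, FDR 0.0156, edgeR's exact test). *Tnc*, tenascin-C, stood at 4000 and 5070 CPM in SZCs and at 135 and 1570 CPM in DZCs, lowest in DZC replicate 1 like *Thbs2*, and was not called (log2 fold change 2.41, SE 0.99, FDR 0.354). Without DZC replicate 2 the list held 6 calls higher in SZCs and 2 higher in DZCs (median log2 fold change 2.28), and without DZC replicate 1 it held 2 and 4. *Sparc*, osteonectin, stood at 11100 and 11900 CPM in SZCs and 14900 and 10300 CPM in DZCs, with overlap. Among 10 chaperones of the secretory pathway through which thrombospondins fold, 1 was called, *Hspa5*, the endoplasmic reticulum chaperone BiP, higher in DZCs at 9180 and 7090 CPM against 1620 and 3100 CPM in SZCs (log2 fold change -1.79, SE 0.49, FDR 0.0183, edgeR's exact test). *Serpinh1*, the collagen chaperone, had a log2 fold change of -0.25 (SE 0.49) and overlapping zones. The *Smoc2* and *Hspa5* calls were lost without SZC replicate 1 and without SZC replicate 2, and that of *Hspa5* also with libraries scaled by totals alone. Without DZC replicate 2 the chaperone list held 2 calls, both higher in DZCs.

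Counting did not use strand, so the genes beside the thrombospondins were read from RefSeq's annotation of assembly ARS-UCD2.0, which is not the build of the counts and was used for neighbours only. *Mtx3*, which overlaps *Thbs4* there, had 77 and 100 counts in SZCs and 33 and 107 in DZCs (log2 fold change 0.18, FDR 1, edgeR's exact test), far below the 26222 and 29164 counts of *Thbs4* in SZCs. *Cmya5* and *Serinc5*, on either side of *Thbs4*, had log2 fold changes of 1.22 (FDR 0.242) and 0.54 (FDR 0.927, edgeR's exact test). *Fsip1*, which overlaps *Thbs1*, had at most 11 counts in any library. *Mtx1*, beside *Thbs3*, had 594 and 571 counts in SZCs and 867 and 663 in DZCs (log2 fold change -0.70, FDR 0.736, edgeR's exact test), so that it lay higher in both DZC libraries where *Thbs3* overlapped. *Wdr27*, beside *Thbs2*, had 12 to 40 counts per library and *Crtc1*, beside *Comp*, 186 to 262.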
